A study of Drosophila melanogaster with 2 samples.

Results

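The larval serum proteins and their companions in the larval fat body and haemolymph were described here through 9 genes: the hexamerin genes Lsp1alpha, Lsp1beta, Lsp1gamma and Lsp2, the fat body protein genes Fbp1 and Fbp2, and the odorant-binding protein genes Obp44a, Obp99b and Obp99c. They were found by matching the CG number in each probe name to the reference gene table, and each of the 9 had 1 probe printed as 1 spot, among 13137 genes with a probe. RNA of whole female Drosophila melanogaster larvae at the last larval stage was compared on 2 two-colour arrays, each hybridised with RNA of both groups, 1 per dye. Ablated larvae carried rnGAL4, UASegr and tubGAL80[ts] over a wild-type chromosome, so that eiger, a tumour necrosis factor ligand, killed cells in the pouch of the wing disc, where the rotund driver acts. Control larvae carried TM6, a balancer of chromosome 3, with the Tubby marker Tb[1] and tubGAL80. Both groups carried a GAL80 transgene and were kept for 24 h at 30 °C, and the array titles give day 6. The labels state opposite effects of temperature on GAL80 in different places, and the design text, with cell death at 30 °C, was followed. Ablated RNA was labelled with Cy5 on replicate 1 and with Cy3 on replicate 2. The labels do not tell whether separate cultures were used for the replicates, and the p-values therefore cover the spread between these arrays alone, which may be technical.

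Hexamerins are large proteins that the fat body makes and secretes into the haemolymph during the last larval stage. Shortly before pupariation the fat body takes them back as a store of amino acids for metamorphosis. Fbp1 is a hexamerin-like receptor for that uptake, and its transcription is switched on by the moulting hormone ecdysone. Fbp2 is a fat body protein of the alcohol dehydrogenase family. Odorant-binding proteins are small secreted carriers, several of which circulate in haemolymph or are made outside the sense organs.

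The arrays limited what could be read. Above background here means a spot median more than 2 SD of the local background over that background's median. Of 14785 gene spots, 38.1% met this in ablated and 26.9% in control larvae on replicate 1, while 17.6% did in ablated and 15.0% in control larvae on replicate 2. Saturation did not touch the members: 0 percent of pixels were saturated for all 9 in every channel. Among all gene spots, 8.49% were above background in all 4 channels and 56.3% in 0 channels. Of the 9 genes, 3 were above background in all 4 channels (Lsp1alpha, Lsp1beta and Obp99b), 4 in 2 channels (Lsp1gamma, Lsp2, Fbp1 and Fbp2) and 2 in 0 channels (Obp44a and Obp99c). The 7 with any such channel passed the filter, as did 5971 genes in all. Markers of larval tissues that passed it included 8 of 10 for the fat body, 8 of 10 for the salivary gland, 8 of 12 for the midgut, 7 of 9 for body wall muscle, 6 of 10 for cuticle, 6 of 8 for the wing disc, 2 of 8 for hemocytes and 1 of 6 for the testis.

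**Figure D1:**
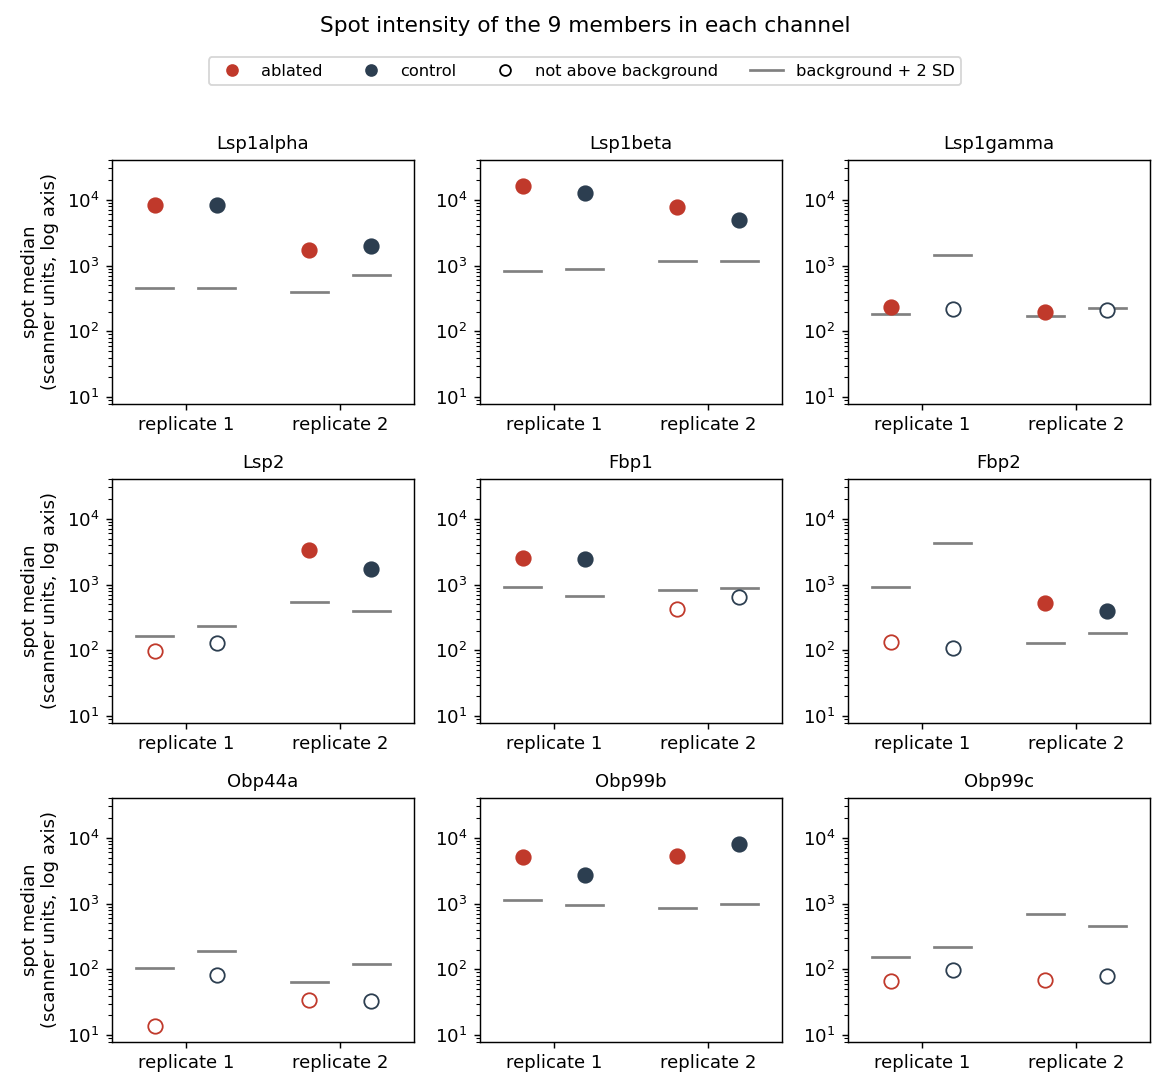
Spot median of each of the 9 genes (scanner units, log axis) in ablated and control larvae on each array, with grey bars at the local background plus 2 SD and open points for channels not above background. Lsp1alpha, Lsp1beta and Obp99b lie above their bars in all 4 channels, and Lsp2, Fbp1 and Fbp2 in both groups of 1 array only.

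No member could be called different between ablated and control larvae given the spread between the arrays. In limma, 0 of the 7 tested members passed a Benjamini-Hochberg adjusted p of 0.05, as did 0 of all 5971 genes (0%), and the lowest adjusted p of any gene was 0.996. At an unadjusted p under 0.05 there was 1 member, Fbp1, against 144 of all genes (2.41%). Lower values in ablated larvae on both arrays were seen for 3 of the 7 members (Lsp1alpha, Lsp1gamma and Fbp1), against 22.4% of all genes. Higher values on both arrays were seen for 1 of the 7 (Fbp2), against 24.5% of all genes. The other 3 (Lsp1beta, Lsp2 and Obp99b) had opposite signs on the arrays, as did 53.2% of all genes. The median log2 ratio of the 7 was -0.0066 (-0.083 with the sign of replicate 2 turned), beside 0.0092 over all genes. The median as labelled is the value of Lsp1gamma, which passed the filter through ablated channels alone. Its ratios, -0.0062 and -0.0070, lay near the floor. Nothing is therefore read from this median or from its place among those lower on both arrays. Across genes the ratios of the arrays ran against each other (r = -0.53 by Pearson and rho = -0.23 by Spearman, over genes and not over independent replicates). With the Pearson r below -0.3, the direction of no gene is taken as settled here. The ratios of each member are therefore given per array as labelled, and its mean also with the sign of replicate 2 turned, which is how the values read if the dyes of 1 array were recorded the wrong way round. List medians are given in both readings as well, and other genes as labelled only. The ratios are log2 of ablated over control after normexp background correction and loess, errors are SD over the 2 arrays, and intervals are 95% intervals of limma.

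**Figure D2:**
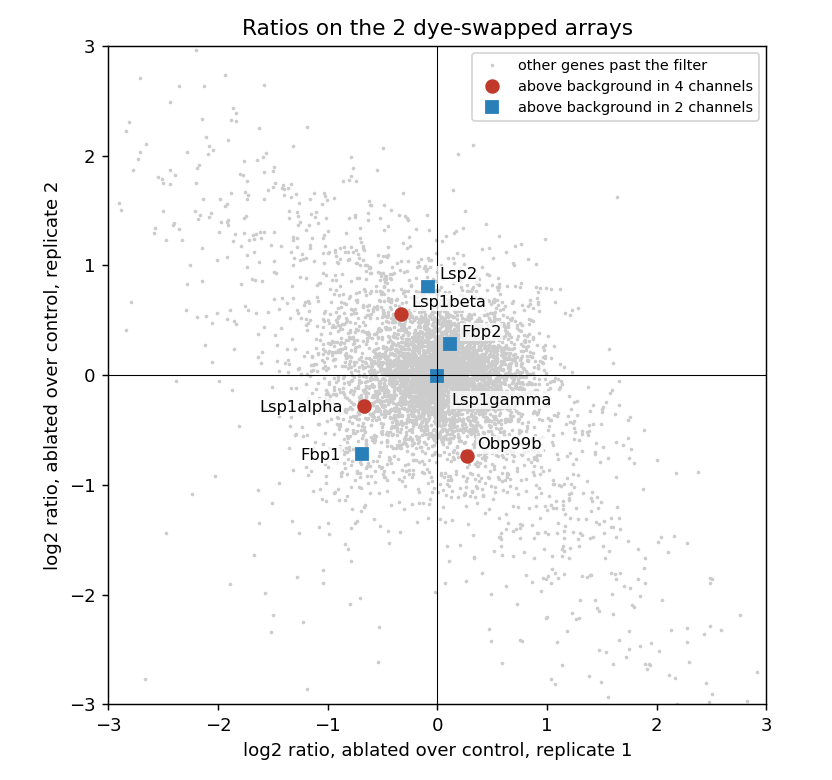
Log2 ratio of ablated to control larvae on replicate 2 against that on replicate 1, for the 7 members past the filter and for all genes past it, of which 56 lie outside the axes. Fbp1 and Lsp1alpha lie in the quadrant lower on both arrays, Fbp2 in the quadrant higher on both, and Lsp1beta, Lsp2 and Obp99b where the arrays differ in sign.

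Among the hexamerins, Lsp1alpha, a subunit encoded on the X chromosome (Dmel_CG2559), was above background in every channel and had ratios below 0 on both arrays. Its spot median was 8320 in ablated and 8219 in control larvae on replicate 1, and 1731 in ablated and 2010 in control larvae on replicate 2. The raw signals of the groups were thus close on both arrays, and the signal of both groups was lower on replicate 2. After normalization its log2 ratio was -0.67 on replicate 1 and -0.29 on replicate 2, a mean of -0.48 ± 0.27 (n = 2), with an interval from -1.23 to 0.28 and an adjusted p of 0.996 in limma. The print block that holds its spot ranked 47 of 48 by median ratio on replicate 1 (-0.15) and 46 of 48 on replicate 2 (-0.25), counted from the highest, and its own ratio on replicate 2 lay near that block median. The mean stayed below 0 under all 13 processing alternatives that kept both arrays and the labelled sign. Several of these, such as other filters on dim probes, cannot change the mean of a gene with 1 probe. The size of the mean depended on scaling. It was -0.23 with loess fitted within each print block, where replicate 2 read -0.044, -0.26 with median centring and -0.089 in the authors' deposited log2 ratios, which were not centred and read 0.010 on replicate 1 and -0.19 on replicate 2. With the sign of replicate 2 turned the mean was -0.19.

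Lsp1beta, a further Lsp1 subunit (Dmel_CG4178, on 2L), was also above background in every channel, but its ratios had opposite signs on the arrays. Its spot median was 16032 in ablated and 12658 in control larvae on replicate 1, and 7715 in ablated and 4915 in control larvae on replicate 2. Before normalization the ablated channel was therefore the brighter on each array. The authors' deposited log2 ratios, which were not centred, were 0.34 and 0.73. Less the median of each array (0.487 and -0.115), they were -0.14 and 0.85. Loess placed the ratio at -0.34 on replicate 1 and 0.56 on replicate 2 (0.11 ± 0.63, n = 2, interval -1.02 to 1.25). The mean of both arrays was above 0 under all 13 alternatives with the labelled sign, several of which cannot change it. Replicate 1 alone read -0.34. With median centring the mean was 0.34, with -0.035 on replicate 1, and with the mean of spot pixels it was 0.0034. With the sign of replicate 2 turned the mean was -0.45 (adjusted p = 0.815 in limma).

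The 3 members above background in every channel make 3 pairs, of which 1 kept its sign on the arrays as labelled. The ratio of Lsp1alpha minus that of Lsp1beta was -0.33 on replicate 1 and -0.85 on replicate 2. Lsp1alpha minus Obp99b was -0.93 and 0.46, and Lsp1beta minus Obp99b was -0.60 and 1.30. With the sign of replicate 2 turned, Lsp1alpha minus Lsp1beta had opposite signs, while both differences from Obp99b kept theirs. With loess within print blocks the ratios of Lsp1alpha and Lsp1beta on replicate 1 were closer, at -0.41 and -0.37, as they were with the mean of spot pixels, at -0.55 and -0.48. The spread between copies of a probe gives a technical scale, which leaves out any spread between RNA samples. Among 12 other probes, each printed 17 times, copies of a probe varied in log2 ratio with a median SD of 0.18 (replicate 1) and 0.19 (replicate 2), which makes an SD of 0.25 and 0.27 for a difference between 2 spots. Each difference has only 2 values, for which the smallest two-sided p of an exact sign-flip permutation test is 0.5, so none can be called.

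The signal of Lsp1gamma, the remaining Lsp1 subunit (Dmel_CG6821, on 3L), was near background. Its spot median was 231 in ablated and 220 in control larvae on replicate 1, and 195 in ablated and 213 in control larvae on replicate 2. Ablated larvae exceeded the background threshold on both arrays, at 184 and 173, and control larvae on neither, where the thresholds were 1424 and 227. The medians of the groups were close, and what separated them was the spread of the local background. The log2 ratios were -0.0062 and -0.0070, so no fold is given, and the small SD of 0.0006 belongs to values near the floor of the correction. The sign turned with median centring (mean 0.047), without background correction (0.082), with the mean of spot pixels (0.0073), in the authors' deposited log2 ratios (0.20) and with the sign of replicate 2 turned (0.00042).

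Lsp2 (Dmel_CG6806, on 3L), the hexamerin with its own subunit type, differed far more between the arrays than between the groups. On replicate 1 its spot median was 99 in ablated and 131 in control larvae, neither above background. On replicate 2 it was 3302 in ablated and 1701 in control larvae, both above background. Its percentile among the gene spots of a channel, taken on background-subtracted medians, was 36.8 on replicate 1 and 98.3 on replicate 2 in ablated larvae, and 41.1 on replicate 1 and 95.9 on replicate 2 in control larvae. Only 45 of 14785 gene spots (0.304%) were as much higher on replicate 2 in both groups, Lsp2 itself included. The log2 ratio was -0.084 on replicate 1 and 0.81 on replicate 2 (0.36 ± 0.63, n = 2, interval -0.77 to 1.49, adjusted p = 0.996 in limma). The only array on which Lsp2 was measurable thus read 1.75-fold higher in ablated larvae.

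That value depended on the normalization. The print block that holds the Lsp2 spot had the highest median ratio of the 48 blocks on replicate 2, at 0.41 over 135 other spots above background. With loess fitted within each block the ratio of Lsp2 on replicate 2 was 0.079 and its mean was -0.0062, and what part of this change belongs to position and what to intensity was not tested. In the authors' deposited log2 ratios Lsp2 read -1.68 and 1.01 (mean -0.33). Turning the sign of replicate 2 gave a mean of -0.45. A further probe, CG11538, carries an identifier that the reference table lists for 2 genes, Lsp2 and an overlapping gene. It was above background in 0 channels and was not used.

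**Figure D3:**
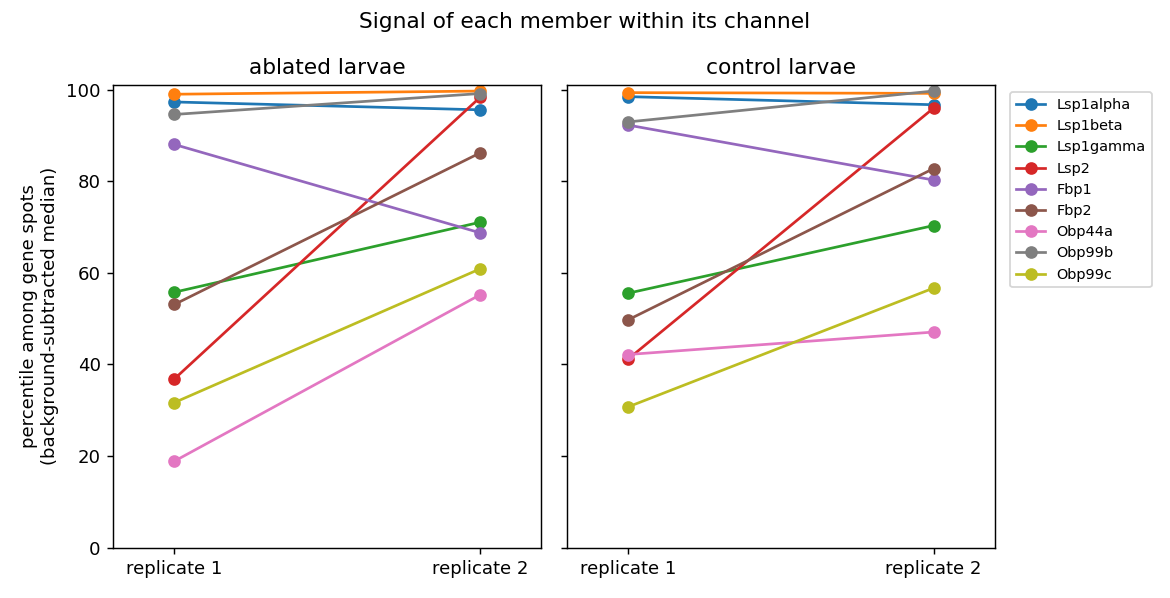
Percentile of each of the 9 genes among all gene spots of its channel (background-subtracted median) on replicates 1 and 2, for ablated larvae on the left and control larvae on the right. Lsp2 lies at 36.8 and 98.3 in ablated larvae and at 41.1 and 95.9 in control larvae, while Lsp1alpha, Lsp1beta and Obp99b lie at 92.9 or higher throughout.

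Fbp1, the hexamerin receptor (Dmel_CG17285, on 3L), had the lowest mean ratio of the members and closely similar ratios on the arrays. Its spot median was 2517 in ablated and 2420 in control larvae on replicate 1, both above background. On replicate 2 it was 432 in ablated and 656 in control larvae, against thresholds of 838 and 883, so neither group was above background there. The log2 ratio was -0.69 on replicate 1 and -0.72 on replicate 2, a mean of -0.70 ± 0.024 (n = 2). No fold is given, since neither channel of replicate 2 was above background. The interval ran from -1.34 to -0.066, with an unadjusted p of 0.0399 and an adjusted p of 0.996 in limma. The mean was below 0 under all 12 alternatives with both arrays and the labelled sign that gave a value, several of which cannot change it. It ran from -1.17 with plain background subtraction to -0.52 without background correction. The similarity of the arrays was not kept under all of them: plain subtraction gave -0.75 and -1.60, and the authors' deposited log2 ratios were -0.042 and -1.47. Since only replicate 1 measured Fbp1 above background, the ratio of replicate 2 rests on a signal within the background spread. With the sign of replicate 2 turned the mean was 0.017.

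Fbp2 (Dmel_CG3763, on 2L) was detected in both groups on replicate 2 only, the opposite array to Fbp1. Its spot median was 136 in ablated and 110 in control larvae on replicate 1, against thresholds of 927 and 4290. Those thresholds came from the spread of the local background, with SDs of 459 and 2136 and background medians of 9 and 18. On replicate 2 the spot median was 529 in ablated and 395 in control larvae, against thresholds of 131 and 181. The ablated signal was the higher on each array, and the log2 ratio was 0.12 on replicate 1 and 0.29 on replicate 2 (0.20 ± 0.12, n = 2, interval -0.46 to 0.86, adjusted p = 0.996 in limma). The mean was above 0 under all 12 alternatives with both arrays and the labelled sign, several of which cannot change it. It ran from 0.11 with loess within print blocks, where replicate 2 read -0.0065, to 0.63 without background correction. With the sign of replicate 2 turned it was -0.083. Of all gene spots, 14.2% shared the detection pattern of Fbp1 (both groups above background on replicate 1, neither on replicate 2) and 2.02% that of Fbp2 and Lsp2.

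Of the odorant-binding proteins only Obp99b (Dmel_CG7592, on 3R) was measured, in all 4 channels. Its spot median was 5144 in ablated and 2743 in control larvae on replicate 1, and 5239 in ablated and 7916 in control larvae on replicate 2. The Cy5 channel was the brighter on each array, which is the ablated group on replicate 1 and the control group on replicate 2. The log2 ratio was 0.27 on replicate 1 and -0.74 on replicate 2 (-0.24 ± 0.71, n = 2, interval -1.47 to 1.00, adjusted p = 0.996 in limma). The mean turned sign with median centring (0.0043) and in the authors' deposited log2 ratios (0.19). With the sign of replicate 2 turned it was 0.50, the largest size among the members in that reading, with an adjusted p of 0.676 in limma. In that reading 515 of 5971 genes (8.63%) passed, and 0 of the 7 members did.

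Obp44a (Dmel_CG2297, on 2R) and Obp99c (Dmel_CG7584, on 3R) gave no level. The spot median of Obp44a was 14 in ablated and 83 in control larvae on replicate 1, and 34 in ablated and 33 in control larvae on replicate 2. That of Obp99c was 67 in ablated and 97 in control larvae on replicate 1, and 70 in ablated and 80 in control larvae on replicate 2. All 8 values lay below their background thresholds, so a difference in these genes was not detectable on these arrays.

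The gap between the arrays can be set against the same spread of probe copies, which gives an SD of 0.26 for a gap between single spots of both arrays. The gap was 3.85 times that SD for Obp99b, 3.41 times for Lsp1beta and 3.39 times for Lsp2. It was 1.45 times for Lsp1alpha, 0.635 times for Fbp2 and 0.130 times for Fbp1. Copies share an array, so this scale leaves out the differences between arrays themselves. The 3 members with opposite signs had the widest gaps. Dye, array and replicate change together between these arrays and cannot be told apart.

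**Figure D4:**
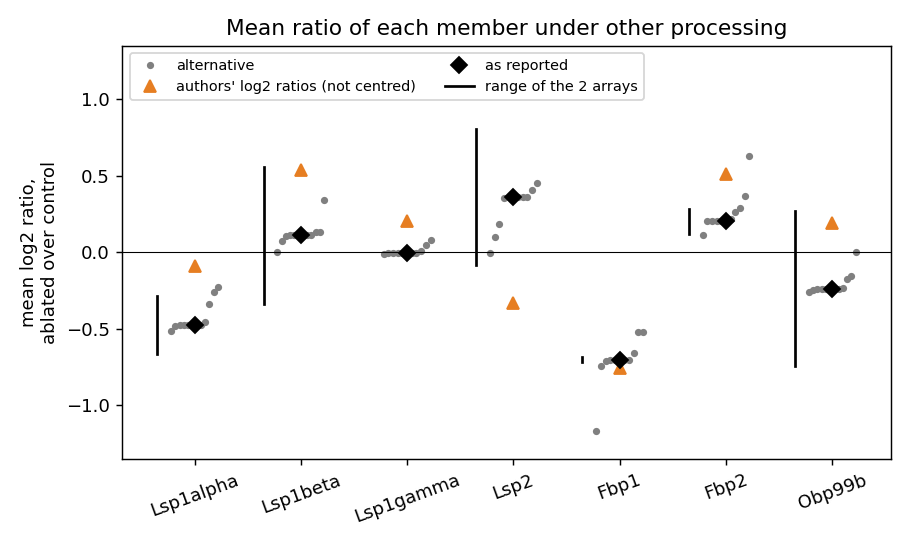
Mean log2 ratio of ablated to control larvae for the 7 members past the filter, as reported (diamonds), under each processing alternative with the labelled sign (points) and in the authors' log2 ratios (triangles), with lines for the range of the 2 arrays as reported. In all of these means of both arrays, Fbp1 and Lsp1alpha stay below 0 and Fbp2 and Lsp1beta above 0. Several alternatives leave a mean unchanged.

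Of the 9 genes, 5 lie on chromosome 3 (Lsp1gamma, Lsp2, Fbp1, Obp99b and Obp99c), the chromosome on which only the controls carried TM6. A difference in these genes from the balancer or its marker cannot be told apart from one that follows ablation.

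Related genes of the haemolymph and fat body were read from lists chosen with earlier results of these data known, and none of their genes passed at an adjusted p of 0.05 in limma. The rest of the odorant-binding family is large, and most of it was dim: 48 of 49 listed genes had a probe, 15 passed the filter and 3 were above background in all 4 channels. Of the 15, 5 were lower and 1 higher in ablated larvae on both arrays, against 22.4% and 24.5% of all genes. Their median was -0.022, and it turned sign with plain background subtraction (0.034), print-tip loess (0.019), median centring (0.12), the authors' deposited log2 ratios (0.42) and the sign of replicate 2 turned (0.014). Those with the smallest p were Obp46a at -0.59 ± 0.019, Obp49a at -0.42 ± 0.52, Obp57b at -0.41 ± 0.52 and Obp51a at -0.25 ± 0.16 (n = 2 each). Of the 15, Obp8a, Obp57d and Obp19a passed the filter through ablated channels alone, so nothing is read from this count and median.

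Other proteins secreted into the haemolymph were mostly dim as well. Of 26 listed, 8 passed the filter, with 2 higher and 0 lower in ablated larvae on both arrays and a median of 0.15, which was 0.30 on replicate 1 and -0.028 on replicate 2, and 0.14 with the sign of replicate 2 turned. Of the 8, 3 passed through ablated channels alone, so nothing is read from this count and median. Tsf1, the iron carrier transferrin, was at 0.78 ± 0.53 (a dim further probe averaged 0.16). The gene regucalcin was at 0.32 ± 0.0026 (dim further probes averaged -0.32 and 0.044). Idgf1, an imaginal disc growth factor, was at 0.28 ± 0.47, and tobi, a glucosidase of the fat body, at 0.095 ± 0.14. Those 3 are regucalcin, Idgf1 and tobi, for which control larvae were above background on neither array. Of the phenoloxidases, enzymes that share the hemocyanin fold with the hexamerins, 1 of 3 passed the filter: PPO3 read -0.46 on replicate 1 and -0.81 on replicate 2, with control larvae above background on neither array (0.18 with the sign of replicate 2 turned). Adh and Adhr, relatives of Fbp2, had no probe matched by name.

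Regulators of the Lsp and Fbp genes, mostly transcription factors of the ecdysone response, had 9 of 12 genes past the filter. Of these, 4 were lower and 1 higher in ablated larvae on both arrays, against 22.4% and 24.5% of all genes. Their median was -0.19, but 0.010 with median centring, 0.28 in the authors' deposited log2 ratios and -0.013 with the sign of replicate 2 turned. Hr3, an early-late nuclear receptor, read -0.87 on replicate 1 and -0.68 on replicate 2, but ablated larvae were above background on neither array, and its other probe read -0.51 and 0.27. Eip74EF, an ETS factor induced directly by ecdysone, was at -0.64 ± 0.16 and above background in all 4 channels. Its other probe, above background in 0 channels, read 0.067 and -0.46. The C/EBP factor slbo was at -0.21 ± 0.019, and the ecdysone receptor gene EcR read -0.11 and -0.27, with control larvae above background on neither array. The other 5, named after their values were seen, did not share that direction: Hr39 read above 0 on both arrays (0.12 and 0.019), and br, Eip75B, Aef1 and Eip93F had opposite signs, with br at 0.60 and -1.05 and Eip75B at 0.86 and -0.68. Further br probes above background in 2 channels read -1.70 and 0.80, and -0.085 and 0.071. A relation between any of these genes and Fbp1 was not tested.

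**Figure D5:**
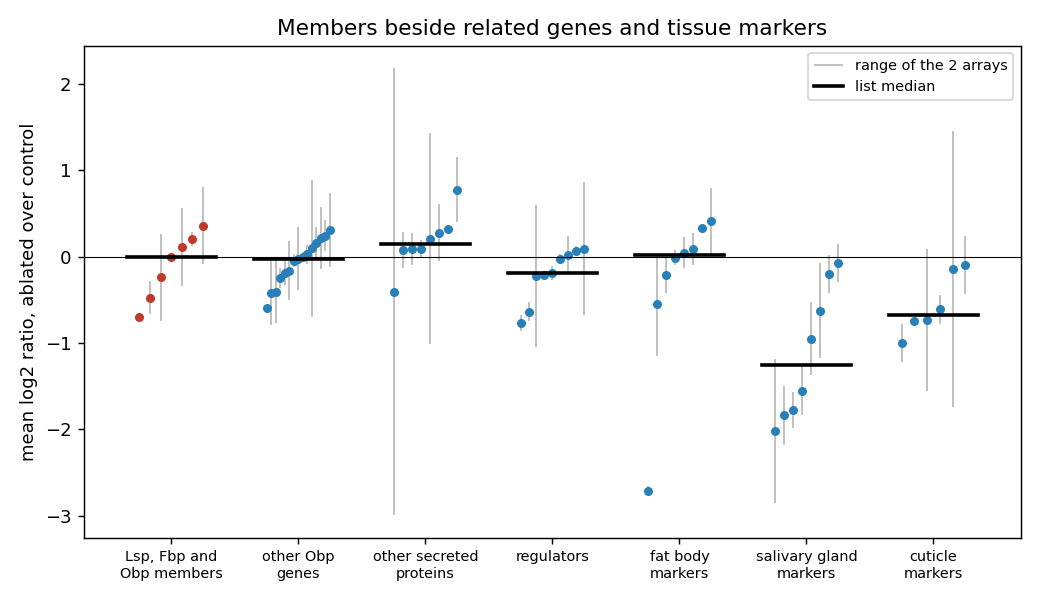
Mean log2 ratio of ablated to control larvae for each gene past the filter, by list, with grey lines for the range of the 2 arrays and black bars for list medians. The medians of the 7 members and of the fat body markers are -0.0066 and 0.017, and the medians of the salivary gland and cuticle markers are -1.25 and -0.67.

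The amount of fat body RNA in the larvae bears on every member, and in whole-larva RNA fewer cells of a type and less RNA per cell cannot be told apart. The 8 fat body markers past the filter had a median of 0.017, with 2 lower and 2 higher on both arrays. This median also lay on either side of 0 by setting, from -0.12 without replicate 2 to 0.33 under the filter for all 4 channels, and was -0.13 with the sign of replicate 2 turned. The sum of their normalized intensities was 20833 in ablated and 26561 in control larvae on replicate 1, and 14135 in ablated and 13098 in control larvae on replicate 2. The markers Lsd-1 and Mtp were not above background in any channel. Gpdh1, a glycerol-3-phosphate dehydrogenase, stood apart within the list at -2.66 on replicate 1 and -2.77 on replicate 2 (unadjusted p = 0.00135, adjusted p = 0.996 in limma), while its other probes averaged -0.72 and 0.14. Salivary gland and cuticle markers had medians below 0 under the alternatives with the labelled sign that left any of them to read, but of 0.31 and 0.14 with the sign of replicate 2 turned. As reported, the 8 salivary gland markers had a median of -1.25, with 6 lower on both arrays. The 6 cuticle markers had a median of -0.67, with 3 lower. Of all genes, 22.4% were lower on both arrays. Medians of other tissue lists were -0.024 for midgut, -0.021 for body wall muscle, -0.068 for wing disc and 0.25 for 2 hemocyte genes. With the sign of replicate 2 turned they were -0.0024, -0.18, 0.28 and 0.19, in that order. The summed salivary gland markers were 9388 in ablated and 17557 in control larvae on replicate 1, and 11688 in ablated and 27748 in control larvae on replicate 2. The summed cuticle markers were 31517 in ablated and 56845 in control larvae on replicate 1, and 25170 in ablated and 48788 in control larvae on replicate 2. The part of these lists in the values of Fbp1 and Lsp1alpha was not tested.

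For the 3 members above background in all 4 channels, the most similar genes were taken by the Euclidean distance over the 2 log2 ratios among 1191 other such genes. Nearest to Lsp1alpha were CG15545, CG10907 and Nup37, at distances of 0.044, 0.045 and 0.052. Nearest to Lsp1beta were RabX6, BuGZ and Top2, at 0.0094, 0.028 and 0.044. Nearest to Obp99b were Desat2, GAPcenA and tmod, at 0.043, 0.071 and 0.092. With only 2 ratios per gene such neighbours are many: 29 genes lay within 0.2 of Lsp1alpha, 38 of Lsp1beta and 10 of Obp99b, a radius near the spread of probe copies. No other member was among the 3 nearest of any member.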

How the data were processed

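Per the file headers, the arrays were quantified with GenePix Pro 7.1.25. The deposited values are the intensity of each spot and of its local background, for Cy5 (635 nm) and Cy3 (532 nm), and the deposited percent of saturated pixels. The authors also deposited log2 ratios, which followed the raw ratio of 635 over 532 nm (r = 0.999 on replicate 1, r = -0.997 on replicate 2) so both give ablated over control, without centring (medians 0.487 and -0.115).

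From these, R 4.3.3 and limma 3.58.1 were used for normexp background correction at an offset of 50 and for loess within each array, in which control spots had a weight of 0. The brightest probe stood for a gene, and genes above background in no channel were left out. The 2 ratios were tested two-sided against 0 with lmFit and eBayes, adjusted by Benjamini-Hochberg over 5971 genes. On simulated data the test recovered known changes where the spread was set below that of these arrays, but not at their own spread. Of 14593 probes, 12687 were matched by locus tag (Release 6 gene table) and 1218 by synonym. All 9 members, and up to 4 genes of smallest p per list, are named; a likeness rule takes the 3 nearest genes. Members and lists were chosen with earlier results of these data known. The number of arrays limits the precision.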

Additional observations from a re-analysis of the deposited data

How the results depend on the processing

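The number of genes past an adjusted p of 0.05 in limma was 0 as reported, 0 at an adjusted p of 0.1 and 0 under every processing alternative with the labelled sign; 515 passed with the sign of replicate 2 turned, where 0 of the 7 members did. An unadjusted p under 0.05 was reached by 144 genes as reported and by 843 with the sign turned. The median log2 ratio of the members (-0.0066 as reported) was 0.075 without background correction, -0.24 under the filter that asks for all 4 channels (3 members left), 0.19 in the authors' values and -0.083 with the sign turned; leaving out 1 replicate gave -0.084 to -0.0070. The number of members lower on both arrays (3 as reported) was 1 under the stricter filter and in the authors' values, and 2 with plain background subtraction, without background correction, with print-tip loess, median centring, the mean of spot pixels and the sign turned. The number higher on both arrays (1 as reported) was 0 with that filter and with print-tip loess, 2 without background correction, with median centring and without a filter, and 3 in the authors' values. The shares of all genes shifted too. In the authors' values 8.11% were lower and 38.3% higher on both arrays, and with median centring 13.1% and 34.7%. With the sign turned they were 26.1% and 27.0%. Under the other settings they lay from 21.3% to 23.2% lower and from 23.0% to 25.1% higher. All genes together had a median of 0.14 after median centring and of 0.31 in the authors' values (0.0092 as reported), and values under these settings are to be read against those medians. Of 87 member values under alternatives with both arrays and the labelled sign, 70 moved by less than the SD between arrays and 17 by more. The SD was that of each member itself, so a member whose arrays differed widely could hardly count as moved. Lsp1beta and Obp99b gave 0 of the 17, while Fbp1 and Lsp1gamma, with small SDs, gave 6 each. The split thus follows the gap between the arrays and does not measure how robust a mean was. Why single values moved was not tested. Many of the 70 could not move, since each member had 1 probe and no saturated pixels. Its mean was identical under other filters, scaling of intensity between arrays, the mean over probes and eBayes with a trend. Leaving out spots with saturated pixels did not change it either. The test already pairs the groups, since each ratio compares both groups of a replicate on the same array. This leaves no further block to fit. Depth is limited by signal: 4 of the 7 tested members were above background in only 2 of 4 channels.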
